A study of Mus musculus with 4 samples.

Results

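The genes described here encode the collagens and other extracellular matrix proteins typical of fibroblasts, the enzymes that mature collagen, the protease and inhibitors that govern matrix turnover, and markers of mesenchymal cells. The 42 genes were picked by symbol for their roles, by a rule that uses no measured value, although earlier results of these data were known when the list was made. Of these, 40 had at least 1 array feature (spot) annotated to that gene alone, 89 features in all, among 19083 genes measured by the series. Col6a3 and Fbn1 had no such feature and were not analysed here.

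Each of 4 two-colour arrays compared mouse embryonic stem (ES) cells carrying a hairpin against exon 1 of Fmr1 (shFmr1) with ES cells carrying a random hairpin (shCT). Fmr1 encodes FMRP, an RNA-binding protein. All cells carried a GFP-encoding lentivirus, were sorted by flow cytometry and were kept as non-clonal populations, so no group was 1 clone. The ES line, its strain and whether feeder cells were used are not given in the labels. The shFmr1 RNA was in Cy5 on replicates 1 and 3 and in Cy3 on replicates 2 and 4.

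Each value below is the deposited log ratio of an array, taken as log2 of shFmr1 over shCT, so a positive value means more RNA in shFmr1 cells. Neither base nor direction is stated in the sources used here. The direction was taken from the targeted gene, so Fmr1 is no independent check of it. Fmr1 read -0.86, -1.65, -1.34 and -1.61 on replicates 1 to 4 (mean -1.37 ± 0.36, SD, n = 4; limma adjusted p = 0.156), and was thus negative on every array, least so on replicate 1. The ratios carry no level, so neither the presence of ES cell markers nor the absolute abundance of any matrix transcript could be read from them. In bulk RNA, fewer cells of a type and less RNA per cell cannot be told apart. Nothing in the labels ties the replicates to separate cultures, and the p-values reflect only the spread among these arrays, which may be technical in part or whole.

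Fibrillar collagens are trimers of long glycine-rich chains. The chains are hydroxylated on proline and lysine in the endoplasmic reticulum, folded with a dedicated chaperone, secreted, trimmed, and cross-linked outside the cell by lysyl oxidases. Fibroblasts and other mesenchymal cells are the main source of type I collagen, and undifferentiated ES cells are not known for it. Fibronectin, tenascin and the small leucine-rich proteoglycans organise the fibrils and link them to cells.

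No matrix gene could be told apart between shFmr1 and shCT cells once all genes were considered. With limma, 0 of the 40 passed an adjusted p of 0.05, as did 0 of 19083 genes (0%). The targeted gene Fmr1 did not pass either (limma adjusted p = 0.156), so missing this threshold does not show that a gene was unchanged. At an unadjusted p under 0.05, 5 of the 40 were higher in shFmr1 cells, against 1.71% of all genes, and 1 was lower, against 2.05% of all genes. Both directions together gave 6 (15%, against 3.77% of all genes). The 5 were P4ha2, Col8a1, Col5a1, Tnc and Postn, and the 1 was Serpinh1. These counts moved with the arrays used. The number higher was 2 without replicate 1 (3 with no dye term) and 1 without replicate 2 with no dye term. The number lower was 3 without replicate 1, 2 without replicate 2 and 0 without replicate 3, with or without the dye term. The median ratio of the 40 genes was 0.0411, against -0.0013 over all genes, and 25 of them had a positive mean (62.5%, against 49.5% of all genes). By array, the median was 0.14, 0.17, 0.032 and -0.0884 on replicates 1 to 4, and 16 of the 40 were above 0 on replicate 4 (40%, against 47.5% of all genes). The median was 0.059 with shFmr1 in Cy5 and -0.0008 with shFmr1 in Cy3. Means above 0.2 were found for 9 of the 40 (22.5%, against 5.97% of all genes) and means below -0.2 for 5 (12.5%, against 5.99%). The arrays also differed more: 9 of the 40 had an SD of at least 0.5 (22.5%, against 5.82% of all genes).

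**Figure D1:**
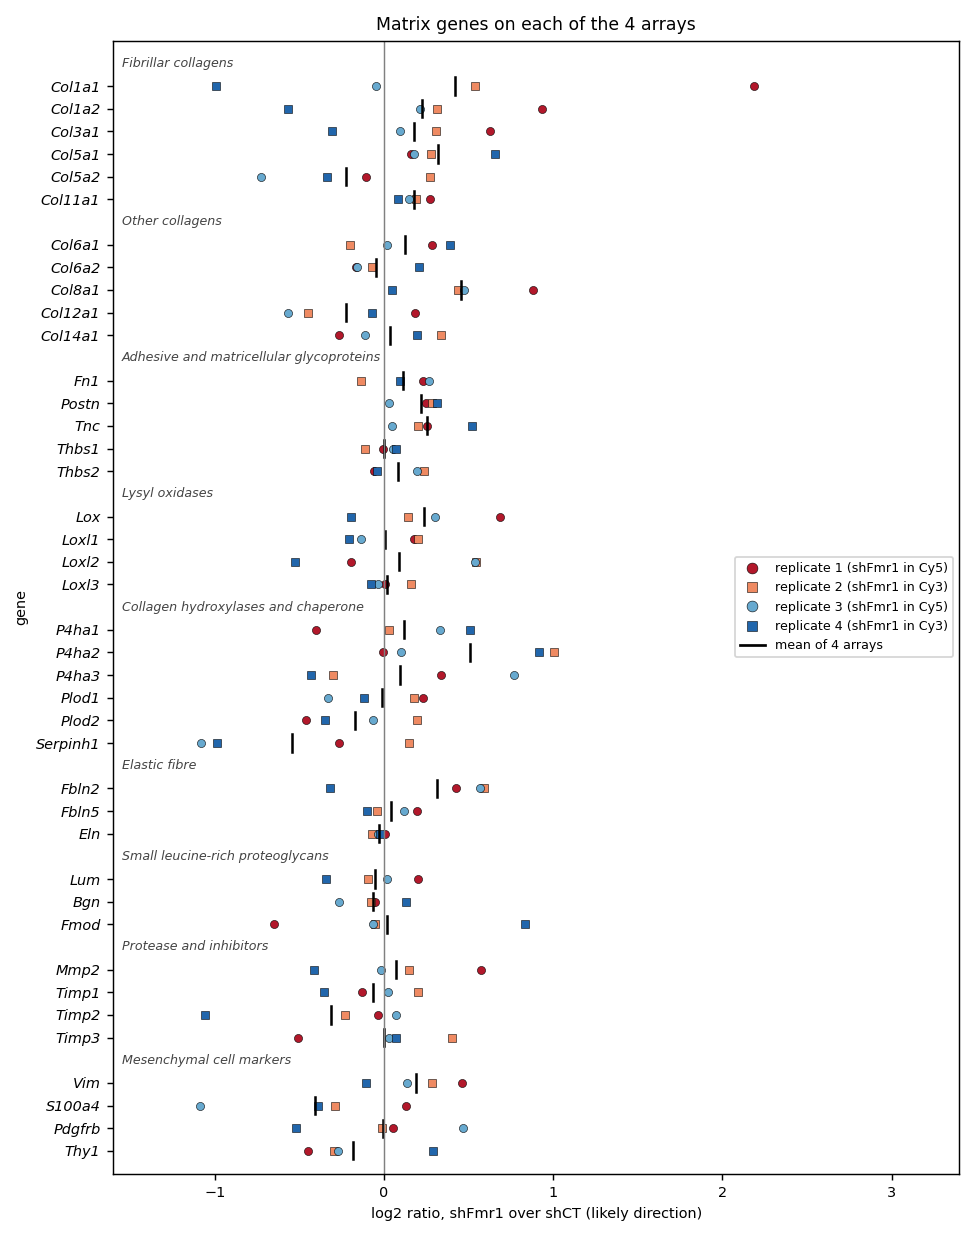
Log2 ratio of shFmr1 over shCT for the 40 measured genes, grouped by role. Each gene has 1 point per array and a black bar at the mean of the 4 arrays. Most points lie within 0.6 of 0 in either direction, and Col1a1 reaches 2.19 on replicate 1 and -0.99 on replicate 4.

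**Figure D2:**
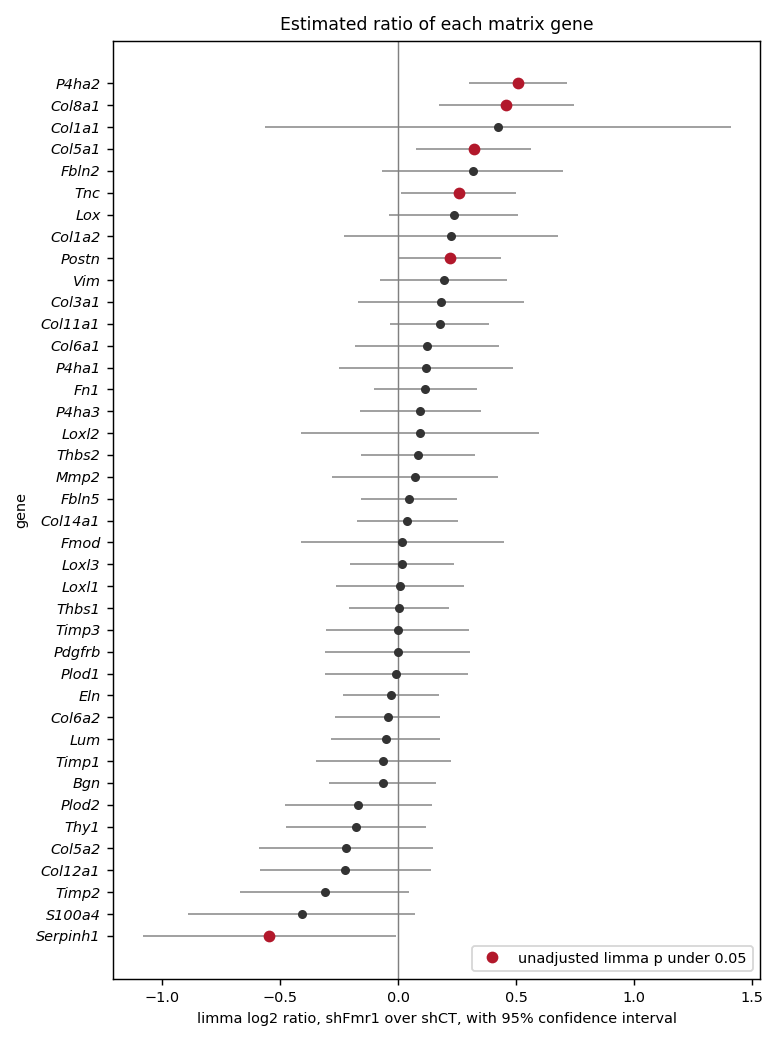
Limma estimate of the shFmr1 over shCT log2 ratio for each gene with its 95% confidence interval, from the fit with a dye term over all genes. Red points mark the 6 genes with an unadjusted p under 0.05, of which P4ha2 (0.51) is the highest and Serpinh1 (-0.55) the lowest.

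Col1a1, Col1a2 and Col3a1, the chains of the interstitial type I and III collagens, varied between arrays more than they differed between hairpins. Col1a1, which encodes the α1 chain of type I collagen, read 2.19, 0.54, -0.046 and -0.99 on replicates 1 to 4. It was thus far higher in shFmr1 cells on replicate 1 and lower on replicate 4. Its mean was 0.42 ± 1.34 (SD, n = 4), with a 95% confidence interval from -0.56 to 1.41 (limma adjusted p = 0.973). Without replicate 1 the limma estimate turned to -0.14 with the dye term and -0.17 with no dye term. Among all 19083 genes, Col1a1 was the 5th highest on replicate 1 and the 56th lowest on replicate 4, and its SD over the arrays ranked 121.

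Col1a2, the partner chain α2 of type I collagen, read 0.93, 0.32, 0.21 and -0.56. Col3a1, the type III collagen chain that often shares fibrils with type I, read 0.62, 0.31, 0.096 and -0.31. For both genes replicate 1 was again the highest array and replicate 4 the only one below 0. Their means were 0.22 ± 0.61 and 0.18 ± 0.39 (SD, n = 4; limma adjusted p = 0.973 each). Without replicate 1 and with no dye term, Col1a2 averaged -0.0121. The Col3a1 estimate, with the dye term, was 0.048 when replicate 1 was left out and 0.027 when replicate 2 was, and 0.31 or 0.33 when replicate 3 or 4 was.

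The features of these genes did not all read alike. Col1a1 has 12 features, all annotated to 1 RefSeq transcript. On replicate 1, 10 of them lay between 2.44 and 2.74, with an SD of 0.11 among them. The same 10 averaged 0.62, 0.018 and -1.10 on replicates 2, 3 and 4, with SDs of 0.093, 0.12 and 0.15. Whether these 10 are repeat spots of 1 probe is not given in the annotation used here, so they may not be separate measurements of the transcript. The other 2 features read 0.13 and -0.0084 on replicate 1 and -0.37 and -0.54 on replicate 4. The gene mean therefore averages features that did not read alike, and the split of the 12 was made after their values were seen.

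Col1a2 showed the same division. Its RefSeq feature read 1.83, 0.51, 0.79 and -1.15, and its cDNA feature 0.043, 0.12, -0.37 and 0.021. Of the 3 Col3a1 features, 1 RefSeq feature read 1.67, 1.13, -0.0041 and -0.52. The other RefSeq feature of Col3a1 stayed between -0.47 and 0.17, and its cDNA feature between 0.027 and 0.17. Col3a1 turned to -0.0358 with the median over its features. The gene means of Col1a2 and Col3a1 thus mix 1 feature that spread widely over the arrays with others near 0. No intensities were analysed here, so whether the flat features gave signal above background is unknown.

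**Figure D3:**
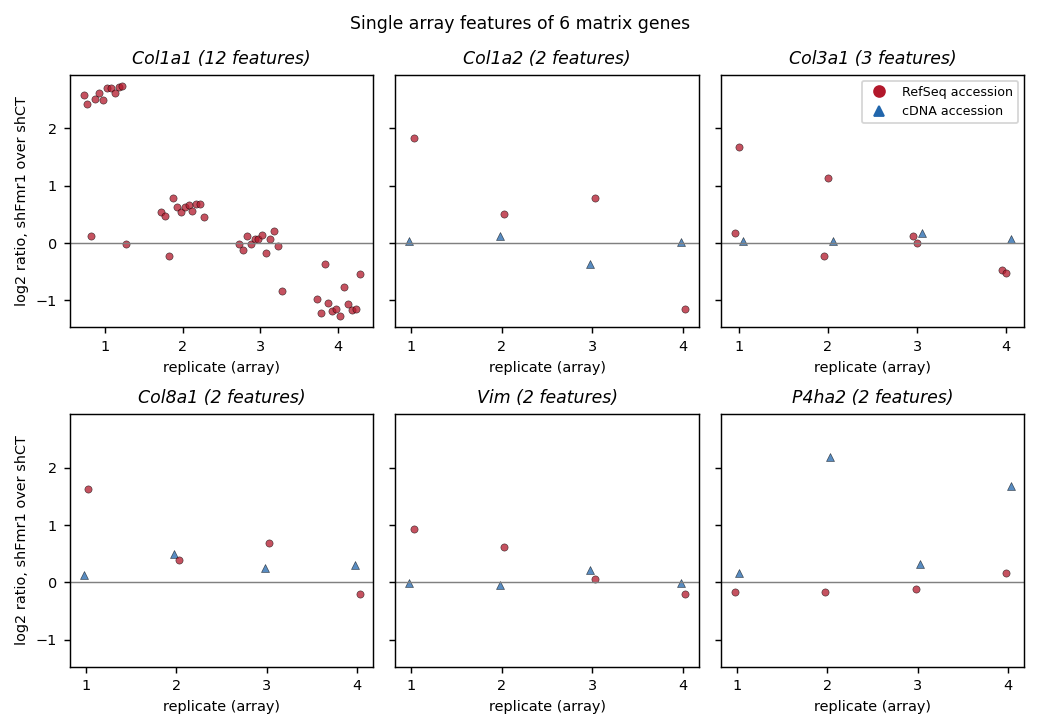
Log2 ratio of every feature of Col1a1, Col1a2, Col3a1, Col8a1, Vim and P4ha2 on each array, with circles for RefSeq and triangles for cDNA accessions. On replicate 1, 10 of the 12 Col1a1 features cluster between 2.44 and 2.74 and the other 2 lie near 0, and both P4ha2 values above 1 belong to its cDNA feature.

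The other fibrillar chains had smaller ratios than Col1a1 on replicate 1. Col5a1, a chain of the type V collagen that starts fibril assembly, was above 0 on all arrays, at 0.16, 0.28, 0.18 and 0.66 (mean 0.32 ± 0.23, SD, n = 4; limma adjusted p = 0.973). Replicate 4 was its highest array. That value came from 1 of its 2 features, at 2.11, while the other feature read -0.79 there. Col5a2, the partner chain, read -0.10, 0.27, -0.72 and -0.33 and averaged -0.22 ± 0.42 (SD, n = 4). In the RefSeq gene table Col5a2 is the next protein-coding gene after Col3a1 on chromosome 1, yet the ratios of the 2 neighbours differed in sign on replicates 1 and 3. Col11a1, a chain of type XI collagen, had the smallest SD of the 6 fibrillar chains, at 0.27, 0.19, 0.15 and 0.085, with replicate 1 highest and replicate 4 lowest as for Col1a1 (mean 0.17 ± 0.080, SD, n = 4; limma adjusted p = 0.973). Only 1 of its 4 features was above 0 on every array, with a mean of 0.47.

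Among the other collagens, Col8a1, a short-chain collagen that forms networks, read 0.88, 0.44, 0.47 and 0.045. It was above 0 on all 4 arrays and highest on replicate 1. Its mean was 0.46 ± 0.34 (SD, n = 4; 95% confidence interval 0.17 to 0.74, limma adjusted p = 0.973). Both features had positive means, 0.63 for the RefSeq and 0.29 for the cDNA feature, and the wide spread lay in the RefSeq feature (1.63 on replicate 1, -0.21 on replicate 4). Col6a1 and Col6a2, neighbouring genes on chromosome 10 for chains of the beaded-filament type VI collagen, averaged 0.12 ± 0.27 and -0.0459 ± 0.18 (SD, n = 4). Col12a1 and Col14a1, collagens that decorate fibrils, averaged -0.22 ± 0.35 and 0.038 ± 0.28 (SD, n = 4).

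The order of type I collagen on replicates 1 and 4 recurred in some other matrix genes and was reversed in others. Of the 40 genes, 10 were highest on replicate 1 and lowest on replicate 4 (25%, against 9.96% of all genes). Of these, 8 spanned at least 0.5 (20%, against 4.56% of all genes) and 2 at least 1 (5%, against 0.765%). This grouping was made after the values were seen and describes the arrays. The 8 were Col1a1, Col1a2, Col3a1, Col8a1, Lox, Lum, Mmp2 and Vim. Lox, a lysyl oxidase that cross-links collagen, read 0.69, 0.14, 0.30 and -0.19. Mmp2, a gelatinase, read 0.57, 0.15, -0.018 and -0.42. Vim, the intermediate filament gene of mesenchymal cells, read 0.46, 0.28, 0.13 and -0.11, and its RefSeq feature spanned 0.94 to -0.20 while its cDNA feature stayed between -0.0543 and 0.21. Other matrix genes ran the reverse way, lowest on replicate 1 and highest on replicate 4. P4ha1 read -0.40, 0.030, 0.33 and 0.51, and Thy1 -0.45, -0.30, -0.27 and 0.29. Col6a2 and Fmod were also lowest on replicate 1 and highest on replicate 4. The share of all genes with that reverse order was not computed. Replicates 1 and 4 hold opposite dye orientations. Replicate 3, which has the orientation of replicate 1, was above replicate 2 for Col8a1, Lox and Lum and below it for Col1a1, Col1a2, Col3a1, Mmp2 and Vim.

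Promoters are shown for the 4 of these 8 genes whose sequence was in the table used here (RefSeq, GRCm38.p6), because these matrix genes had their highest and lowest values on the same arrays. Each line gives the 250 bases before the annotated start, 5′ to 3′ on the gene's strand. Capitals mark the CCAAT box (CCAAT), the TATA element (TATAAA), the GC box (GGGCGG) and the AP-1 site (TGANTCA), each searched on both strands. None of these motifs contains another.
Col1a2 (chr6:4505368-4505617, plus strand): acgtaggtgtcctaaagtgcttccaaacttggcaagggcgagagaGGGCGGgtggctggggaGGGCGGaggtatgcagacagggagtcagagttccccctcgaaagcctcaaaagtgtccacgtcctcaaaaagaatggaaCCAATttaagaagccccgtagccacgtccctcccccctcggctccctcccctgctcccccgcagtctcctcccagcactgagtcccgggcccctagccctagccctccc
Col3a1 (chr1:45311288-45311537, plus strand): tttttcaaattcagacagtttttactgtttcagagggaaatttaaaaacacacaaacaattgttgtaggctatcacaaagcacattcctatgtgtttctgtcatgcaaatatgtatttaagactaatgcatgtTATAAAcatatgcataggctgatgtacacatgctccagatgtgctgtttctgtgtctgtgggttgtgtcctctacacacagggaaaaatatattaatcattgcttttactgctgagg
Col8a1 (chr16:57754738-57754987, minus strand): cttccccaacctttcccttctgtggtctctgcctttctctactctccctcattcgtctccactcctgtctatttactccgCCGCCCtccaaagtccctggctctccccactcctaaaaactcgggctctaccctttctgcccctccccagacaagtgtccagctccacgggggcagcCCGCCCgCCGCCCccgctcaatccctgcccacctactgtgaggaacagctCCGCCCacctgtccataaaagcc
Vim (chr2:13574061-13574310, plus strand): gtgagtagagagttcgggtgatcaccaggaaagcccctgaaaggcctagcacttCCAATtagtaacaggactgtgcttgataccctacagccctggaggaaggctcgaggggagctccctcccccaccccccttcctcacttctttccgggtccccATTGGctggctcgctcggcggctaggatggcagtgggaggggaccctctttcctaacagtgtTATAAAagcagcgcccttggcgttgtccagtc

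CCAAT boxes and TATA elements are promoter motifs, GC boxes can bind Sp1-type factors, and AP-1 sites can bind Fos and Jun proteins. The CCAAT box was found in Col1a2 and Vim, and in 34.5% of 27025 promoter windows of the same length. The TATAAA sequence was found in Col3a1, at bases -117 to -112 from the start, and in Vim, at -32 to -27 (13% of windows). The GC box was found in Col1a2 and Col8a1 (32.9%). No window shown held the AP-1 site (6.87%). No motif searched was thus common to all 4 promoters. Col3a1 had a GC content of 35.2%, and the other 3 promoters lay between 58.4% and 62%, against a median of 52% over all windows.

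Markers of other cells also differed between arrays. Of these marker lists, only smooth muscle had its highest median on replicate 1 and its lowest on replicate 4. That order rests on near ties, as its medians were almost equal on replicates 1 and 2 and on replicates 3 and 4. All 8 smooth muscle and myofibroblast markers were above 0 on replicates 1 and 2, and 1 and 0 of the 8 were above 0 on replicates 3 and 4. Their medians were 0.55, 0.55, -0.44 and -0.46, and their values ranged from 0.094 to 1.80 on replicate 1 and from -0.81 to -0.0789 on replicate 4. Acta2, smooth muscle actin, read 1.80, 0.90, -0.18 and -0.52. Tagln, the actin-binding protein transgelin, read 1.77, 1.01, -0.71 and -0.81. Both were positive on replicates 1 and 2 and negative on the other arrays. The 12 markers of embryonic fibroblasts outside the matrix list, which could mark feeder cells, were positive on average in 9 genes and had medians of 0.18, 0.074, -0.0765 and 0.0019, with 10, 10, 4 and 6 above 0. Pdgfra, a receptor of fibroblasts and also of primitive endoderm, stayed between -0.0901 and 0.0071 over 11 features. The 10 markers of parietal and primitive endoderm, cells that make basement membrane, had medians of -0.62, -0.0106, -0.32 and -0.0868, with 1, 5, 0 and 4 above 0. Of these 10, 0 had a positive mean and 4 were lower at an unadjusted p under 0.05, against 2.05% of all genes, with 0 past an adjusted p of 0.05 in limma. The 4 were Sparc, Col4a1, Gata6 and Dab2, with dye coefficients of -0.40, -0.31, -0.31 and -0.0278. The median of the endoderm list was -0.42 with shFmr1 in Cy5 and -0.0836 with shFmr1 in Cy3. The 7 ES cell markers had medians of -0.078, -0.068, 0.25 and 0.092, with 2, 2, 5 and 5 above 0. Per the labels, transduced cells were sorted, and whether feeder cells were used before or after the sort is not given. The part of any of these cells in the collagen values was not tested.

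**Figure D4:**
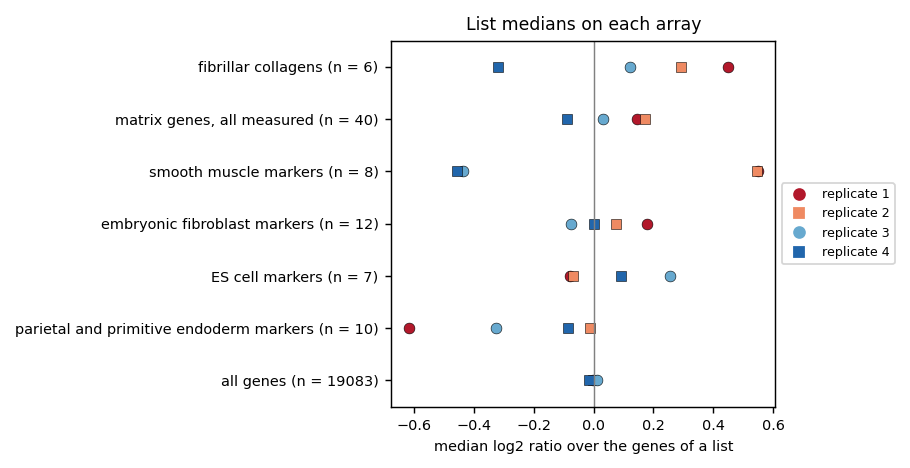
Median log2 ratio over the genes of each list on each array, with the number of genes measured. Smooth muscle markers lie near 0.55 on replicates 1 and 2 and near -0.45 on replicates 3 and 4, the fibrillar collagens run between 0.45 on replicate 1 and -0.32 on replicate 4, and all genes together lie at 0 within 0.02.

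Enzymes and the chaperone of collagen maturation split in direction, with 3 of 6 genes positive. P4ha2, a catalytic subunit of prolyl 4-hydroxylase, read -0.0037, 1.01, 0.10 and 0.92. It was near 0 with shFmr1 in Cy5 and near 1 with shFmr1 in Cy3. Its estimate was 0.51 (95% confidence interval 0.30 to 0.71, limma adjusted p = 0.973), with an SD of 0.53 over the arrays. The dye coefficient was nearly as large (-0.46; limma adjusted p = 0.730). All of this came from the cDNA feature (0.16, 2.18, 0.31 and 1.67), and the RefSeq feature averaged -0.0702.

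P4ha3, another catalytic subunit, followed the opposite orientation, at 0.34, -0.30, 0.77 and -0.43. It was positive with shFmr1 in Cy5 and negative with shFmr1 in Cy3, and averaged 0.094 ± 0.56 (SD, n = 4; limma adjusted p for the dye = 0.730). Without replicate 3 its limma estimate was -0.0145 with the dye term and -0.13 with no dye term. P4ha1, the widely expressed subunit, averaged 0.12 ± 0.40, and the lysyl hydroxylase genes Plod1 and Plod2 -0.0094 ± 0.26 and -0.17 ± 0.29 (SD, n = 4). With P4ha2, P4ha3 and Col14a1, 3 of the 40 genes passed an unadjusted threshold of 0.05 for the dye coefficient in limma (7.5%, against 6.49% of all genes), and 0 of 19083 passed an adjusted p of 0.05 for it, with 1238 at an unadjusted p under 0.05.

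**Figure D5:**
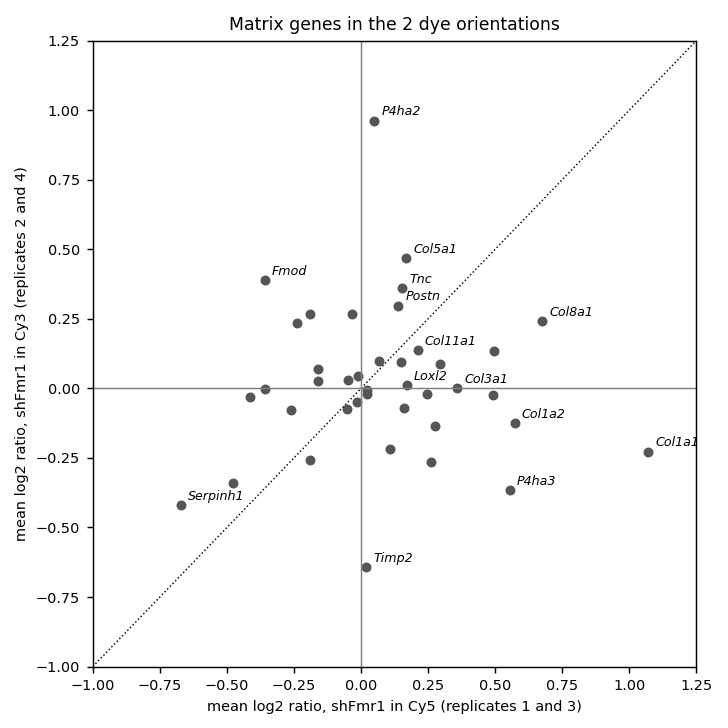
Mean log2 ratio of each gene with shFmr1 in Cy5 (x axis) and in Cy3 (y axis), 2 arrays each, with a dotted line where both are equal. P4ha2 (0.050 and 0.96) and Timp2 (0.019 and -0.64) stand apart in the Cy3 orientation, Col1a1 (1.07 and -0.23) in the Cy5 orientation, and Serpinh1 (-0.67 and -0.42) is negative in both.

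Serpinh1 encodes HSP47, the chaperone dedicated to procollagen. It read -0.26, 0.15, -1.08 and -0.99, so 3 of 4 arrays were below 0 and replicates 3 and 4 by about 1. On replicate 4 it was the 57th lowest of 19083 genes and on replicate 3 the 164th lowest. The mean was -0.55 ± 0.59 (SD, n = 4; 95% confidence interval -1.08 to -0.0077, limma adjusted p = 0.973), from 1 feature. It was the lowest mean of the 40 genes. Leaving out 1 array gave estimates between -0.83 (without replicate 2) and -0.26 (without replicate 4), dye term kept.

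The lysyl oxidases all had positive means, none beyond the spread of the arrays. Lox averaged 0.23 ± 0.37 (SD, n = 4; limma adjusted p = 0.973). Loxl2 read -0.20, 0.55, 0.54 and -0.52, with replicates 2 and 3 high and 1 and 4 low whatever the dye. It averaged 0.091 ± 0.54 (SD, n = 4). Its limma estimate turned to -0.18 without replicate 2 and -0.0921 without replicate 3, dye term kept, and to -0.0613 and -0.0576 with no dye term. Loxl1, which works in elastic fibres, averaged 0.0085 ± 0.21 and Loxl3 0.015 ± 0.10 (SD, n = 4).

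Adhesive and matricellular glycoproteins were positive on average in 5 of 5 genes, with a median of 0.11. Fn1, fibronectin, read 0.23, -0.13, 0.26 and 0.098 (mean 0.11 ± 0.18, SD, n = 4). Of its 12 features, 11 were above 0 on replicate 1, 2 on replicate 2, 11 on replicate 3 and 9 on replicate 4. Most of its features thus shared a sign within an array. All 12 are annotated to 1 RefSeq transcript and may be repeat spots of 1 probe, so they may not be separate measurements. Tnc, tenascin C, was above 0 on each array at 0.26, 0.20, 0.048 and 0.52 (mean 0.26 ± 0.20, SD, n = 4; limma adjusted p = 0.973). On replicate 4, 1 of its 5 features read 2.84 and the others between -0.28 and 0.34. Postn, periostin, read 0.25, 0.28, 0.032 and 0.31 (mean 0.22 ± 0.13, SD, n = 4; limma adjusted p = 0.973). Its RefSeq feature averaged 0.50 and its cDNA feature -0.0647. The thrombospondin genes Thbs1 and Thbs2 averaged 0.0021 ± 0.082 and 0.084 ± 0.15 (SD, n = 4). With Col5a1, Col8a1 and Col11a1, Tnc and Postn made up the 5 genes above 0 on all 4 arrays (12.5%, against 5.37% of all genes), and 0 were below 0 on all 4, against 5.88% of all genes.

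Among elastic fibre genes, Fbln2, a fibulin, read 0.42, 0.59, 0.57 and -0.32 (mean 0.32 ± 0.43, SD, n = 4; limma adjusted p = 0.973). Replicate 4 alone was negative. Eln, elastin, stayed between -0.0718 and 0.0072, the smallest SD of the 40 genes (0.033). Fbln5 averaged 0.044 ± 0.14 (SD, n = 4).

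The small leucine-rich proteoglycans differed from each other. Fmod, fibromodulin, read -0.65, -0.0557, -0.0654 and 0.84, which is the reverse of Col1a1 on replicates 1 and 4, and averaged 0.016 ± 0.61 (SD, n = 4). The limma estimate was -0.21 without replicate 4 and -0.13 without replicate 3, dye term kept, and -0.26 without replicate 4 with no dye term. Lum, lumican, averaged -0.0542 ± 0.23 and Bgn, biglycan, -0.0669 ± 0.16 (SD, n = 4).

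Of the protease and inhibitor genes, Timp2, an inhibitor that also helps activate Mmp2, read -0.0337, -0.23, 0.072 and -1.06. It was low on replicate 4 alone, where it was the 48th lowest gene of all, and averaged -0.31 ± 0.51 (SD, n = 4; limma adjusted p = 0.973). Its estimate was -0.11 without replicate 4 with the dye term and -0.0638 with no dye term. Mmp2, Timp1 and Timp3 averaged 0.071 ± 0.41, -0.0629 ± 0.23 and -0.0021 ± 0.38 (SD, n = 4).

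The mesenchymal cell markers did not move as a unit. S100a4, a calcium-binding protein of fibroblasts, read 0.13, -0.29, -1.09 and -0.39 and averaged -0.41 ± 0.51 (SD, n = 4; limma adjusted p = 0.973). Its low replicate 3 came from the cDNA feature (-2.24), while the RefSeq feature read 0.061 there and -0.71 and -1.09 on replicates 2 and 4. Pdgfrb, the PDGF receptor of pericytes and fibroblasts, averaged -0.0029 ± 0.40, Thy1 -0.18 ± 0.32 and Vim 0.19 ± 0.24 (SD, n = 4).

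Other genes of the matrix pathway, listed by function, gave 0 calls at an adjusted p of 0.05 with limma. Against 3.77% of all genes, 0 of 19 other collagen genes measured had an unadjusted p under 0.05. Their median was -0.0295, yet 15 of the 19 were above 0 on replicate 1 and 1 of the 19 on replicate 4, where 47.5% of all genes were. Of 18 other genes of collagen maturation measured, 1 was lower at an unadjusted p under 0.05 (2.05% of all genes) and 0 were higher (1.71%). That gene was Sparc, a collagen-binding matrix protein also made by parietal endoderm (-0.80, 0.16, -1.02 and -0.40, mean -0.51 ± 0.52, SD, n = 4). The dye coefficient of Sparc was -0.40. Of 10 receptors for collagen and fibronectin and 10 genes of TGF-beta signalling and matricellular control, 0 had an unadjusted p under 0.05. Of 10 further matrix protease genes, 1 was higher at that threshold, against 1.71% of all genes, and 0 were lower. The higher gene was Mmp11 (0.33, 0.12, 0.80 and -0.0601, mean 0.30 ± 0.37, SD, n = 4), with a dye coefficient of 0.27.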

How the data were processed

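The authors deposited 1 log ratio for each feature on each array, and these were taken as log2 values. Their software, normalization and log base are not stated in the sources used here. The mean of each deposited array is 0 to 4 decimals, so the values were centred. A log10 ratio of raw, non-zero 16-bit counts cannot exceed 4.82 in size, and the table reaches 5.84. Whether that bound holds for the processed signals used here is not known, so the base remains unsettled. No intensities were analysed, so dim features could not be filtered, and the number of arrays limits the precision.

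Of 45214 features, 33649 had 1 gene symbol in a 2016 platform annotation, 56 several and 11509 none; the last 2 kinds were left out. The mean over a gene's features was taken per array. In R 4.3.3, limma 3.58.1 (lmFit, eBayes) fitted a hairpin and a dye coefficient to all 19083 genes, with Benjamini-Hochberg adjustment across them. Each array pairs 1 shFmr1 with 1 shCT RNA. The fit was tested on simulated data. The genes, their role groups and the other lists were chosen with earlier results of these data known. Values on every array are given for genes with an unadjusted p under 0.05, with 1 sign on all arrays and a mean of at least 0.15 in size, among the 8 largest SDs, or with features that differ in sign and by over 0.5. Lox, Mmp2, Vim, Fbln2, Fn1, Col5a2, S100a4, P4ha1 and Thy1 were added after their values were seen. Alternatives tried were a fit with no dye term, other centring, scaling or quantile normalization, other summaries of features, robust eBayes, single features, other log bases and leaving out each array.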

Additional observations from a re-analysis of the deposited data

Results flagged for a closer look

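Each of the 40 genes, the 9 role groups and the whole list was examined for an array that lay far from the other 3 by Dixon's criterion, 50 results in all. Only 1 was marked, where chance alone gives about 1 in 20, or 2.5. The median of the small leucine-rich proteoglycans (Lum, Bgn and Fmod) was 0.13 on replicate 4, and between -0.0791 and -0.0532 on the other arrays.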

How the results depend on the processing

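No matrix gene passed an adjusted p of 0.05 with limma in any setting run, and the median over the 40 genes stayed positive in each, from 0.0087 to 0.0752 with 1 array left out, although it was -0.0884 on replicate 4 taken alone and -0.0008 over the 2 arrays with shFmr1 in Cy3. Over all genes, 2 passed with quantile normalization (Fmr1 and Krt19, a keratin) and 0 to 87 with 1 array left out. Genes higher at an unadjusted p under 0.05 numbered 2 with quantile normalization, 3 with 1 feature per gene, 2 at a threshold of 0.01 and, with 1 array left out, 2 to 5 with the dye term and 1 to 6 with none. Genes lower numbered 0 with arrays scaled to the same spread, 0 with robust eBayes, 0 at a threshold of 0.01 and 0 to 3 with 1 array left out. With 1 feature per gene, Col1a2 (-0.0458), Col3a1 (-0.1007) and P4ha2 (-0.0702) turned negative, as did Col3a1 with the median over features (-0.0358) and Fmod with quantile normalization (-0.0289). With the dye term and 1 array omitted, estimates ran -0.1367 to 0.9805 for Col1a1, 0.0046 to 0.4443 for Col1a2, -0.1768 to 0.3580 for Loxl2, -0.0145 to 0.2023 for P4ha3 and -0.2070 to 0.2384 for Fmod. With no dye term the ranges were -0.1671 to 0.8930, -0.0121 to 0.4873, -0.0613 to 0.2952 (and -0.0576 without replicate 3), -0.1318 to 0.2683 and -0.2574 to 0.2380 for the same genes. For these reversals the cause was not tested. With the dye term kept and 1 array left out, 1 array stands alone in its orientation and the spread comes from the other 2. Each ratio already pairs the 2 RNAs of 1 array, so the fit was a paired one and no separate paired analysis was run.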
